A study of Mus musculus with 6 samples.

Results

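The 38 Hox genes chosen by name from the 4 mouse clusters were read by cluster and by paralog number in mouse embryos that had lost Brg1. The members were found by the gene name of the spots outside the controls: 37 of the 38 had a probe, Hoxc11 had none by name or accession, and 32 passed the filter on dim probes (all 3 arrays of either genotype well above background) and were tested, among 15018 named genes in all. Whole embryos at embryonic day (E) 8.5 were compared on 1-colour Agilent arrays, 1 array per sample. The conditional knockout samples (Brg1d/d, called CKO, 3 samples) carried the deleted allele of Brg1, and the controls (Brg1floxed/floxed, 3 samples) carried the floxed gene and are labelled wild type. The labels give an intraperitoneal tamoxifen injection of the mother for both genotypes. They call the samples biological replications. Neither the driver of the recombinase nor the number of embryos in a sample is given in the sources, so p-values measure the spread between these samples. Smarca4, the gene of Brg1, encodes the motor ATPase of SWI/SNF complexes, which slide and evict nucleosomes.

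Hox genes encode homeodomain transcription factors that give cells of the trunk, hindbrain and tail their position along the head-to-tail axis. In the mouse they lie in 4 clusters on different chromosomes, and paralogs in different clusters share a number. Genes at the 3′ end of a cluster (low numbers) are switched on early and act towards the head, while genes at the 5′ end (high numbers) are switched on late and act towards the tail. Trithorax proteins, a group to which the fly orthologue of Brg1 belongs, are known for keeping Hox genes active, and Polycomb proteins for keeping them silent.

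Paralogs are alike in sequence, so the 60-base probes decide which gene a value belongs to. Among 1117 pairs of probes of different members, the median longest shared run was 6 bases. The only pair that shared 15 or more bases in a row was that of Hoxa9 and Hoxb3, with a run of 22. At their best alignment 35 of 46 overlapping bases matched, and whether these probes share signal was not tested. The array's annotation lists a RefSeq accession of Hoxd3 beside that of Hoxb3 for the Hoxb3 probe, so its value is uncertain in its source.

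The probes of Hoxa6 and the upstream probe of Hoxd3 cover the hexapeptide, the short motif ahead of the homeodomain through which Hox proteins bind their PBX partners. Capitals mark CCCTGGATG, 3 codons within it, which were in 2 of 48 member probes and 17 of all 41174. The positions in mm7, the build of the array's annotation, are chr6:52171564-52171623 (minus strand) and chr2:74588190-74588249 (plus strand).
Hoxa6: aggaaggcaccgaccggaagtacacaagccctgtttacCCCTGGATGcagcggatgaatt
Hoxd3: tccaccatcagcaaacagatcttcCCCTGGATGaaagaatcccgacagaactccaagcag
The probes of paralog group 13, the most 5′ genes, number 6, and 3 are shown because Hoxd13 gave a called probe: that probe, the dimmer one of Hoxa13 and that of Hoxb13. They lie at chr6:52222385-52222444 (minus strand), chr11:96304167-96304226 (plus strand) and chr2:74513664-74513723 (plus strand) in mm7, and capitals mark a longest run that each shares with another of the 3.
Hoxa13: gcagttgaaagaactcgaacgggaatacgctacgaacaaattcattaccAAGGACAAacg
Hoxb13: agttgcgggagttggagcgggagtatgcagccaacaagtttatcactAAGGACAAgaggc
Hoxd13: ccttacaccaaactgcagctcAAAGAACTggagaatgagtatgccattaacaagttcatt

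Values below are log2 processed signal minus the array's 75th percentile, called the log2 level. Levels are compared only within a probe, and a difference is CKO minus control with its standard error (SE) from limma. A gene was called where limma's Benjamini-Hochberg adjusted p over 27834 probes was under 0.05. The targeted gene was lower on the CKO arrays by each of its 3 probes, by -2.69, -2.25 and -2.08 (limma adjusted p = 0.0114, 0.00543 and 0.0129). The share of spots well above background ran from 68.5% to 73.5% per array. CKO 2 and the 3 controls were scanned on 1 day, while CKO 1 and CKO 3 were each scanned on a day of their own, and each CKO array lay on a slide apart from that of the controls. Slide and genotype thus cannot be told apart. The brightest spike-in gave 12934 and 6905 units on CKO 1 and CKO 3, against 208550 to 241121 on the other 4 arrays. The difference within the shared scan day, CKO 2 against the 3 controls, is therefore given beside the results as the same-day difference. A fit with scan day as a block gives this same difference, since CKO 1 and CKO 3 each have their own day. A call lost in that fit therefore says little about a single gene.

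Of the 32 tested Hox genes, 1 rose (Hoxb5) and 1 fell (Hoxc6), that is 2 of 32, while 10.6% of all 15018 genes were called (5.25% higher and 5.31% lower). The differences were positive for 16 members and negative for 16. Their median was -0.05, beside 0.07 over all genes, and the same-day medians were -0.12 and 0.004. They spanned -1.65 (Hoxd3) to 1.16 (Hoxc4), and the median absolute difference was 0.56, against 0.383 over all genes. The 2 genotypes did not overlap for 14 members, 7 with CKO above (background 22.8% of all genes) and 7 with CKO below (background 19.2%). At an unadjusted p under 0.05 the members numbered 13 of 32, against 32.5% of all genes. In whole embryos, fewer cells of a type and less RNA per cell cannot be told apart.

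**Figure D1:**
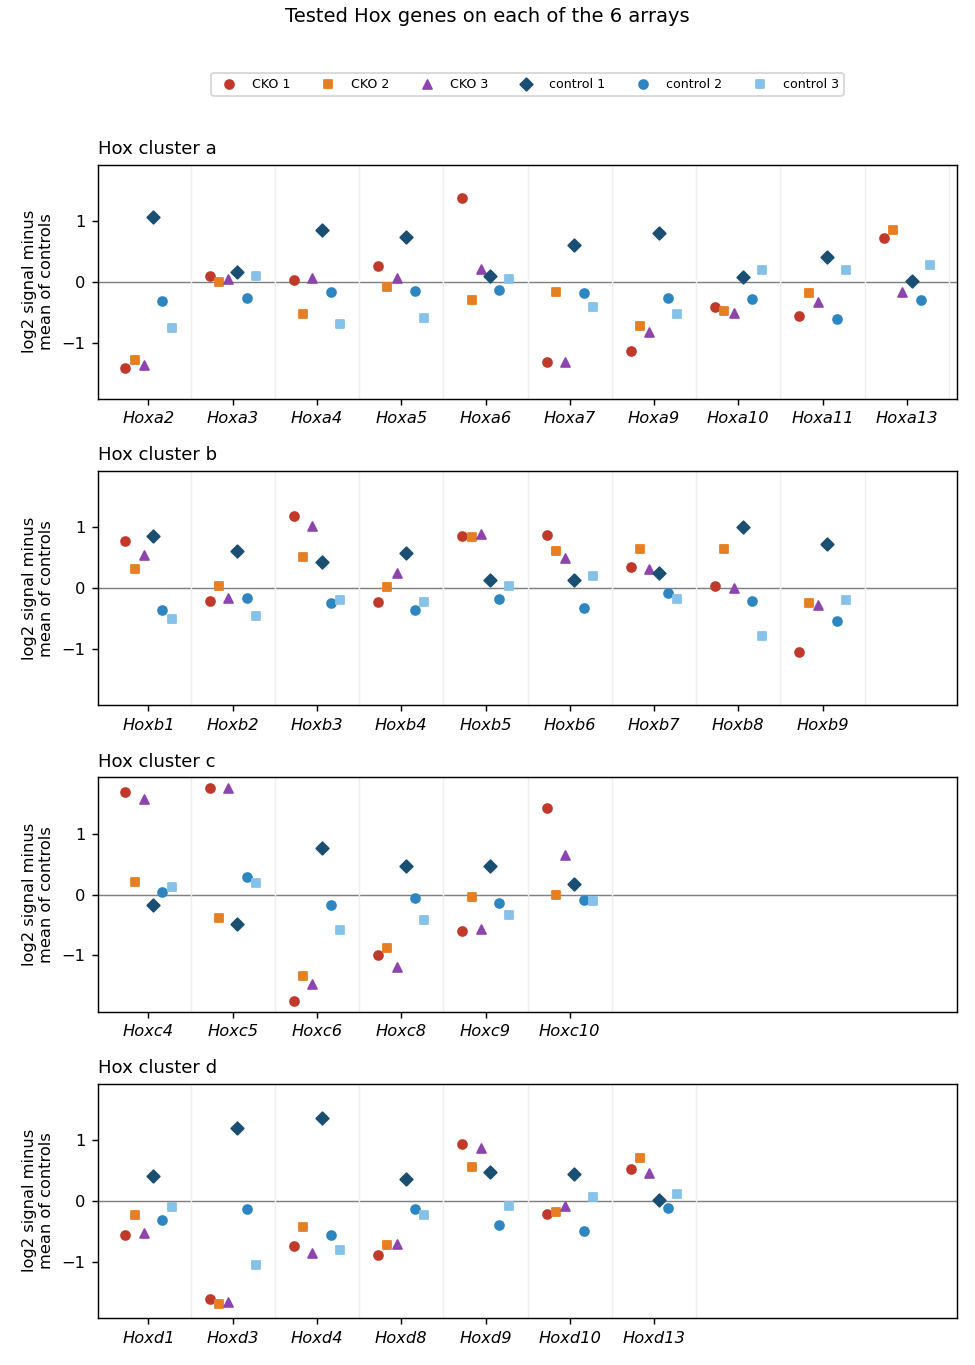
The log2 level of each tested Hox gene on the 6 arrays, minus the mean of the 3 controls (vertical axis, log2), with the genes of each cluster in order of paralog number. Hoxb5 sits above every control on all 3 CKO arrays and Hoxc6 below every control, while control 1 (diamonds) lies above the mean of the other controls for 30 of 32 genes.

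Control 1 stood apart from the other controls in the Hox genes. It lay above the mean of controls 2 and 3 for 30 of the 32 members, by a median of 0.68, while 56.9% of all genes did so, by a median of 0.071. The exceptions were Hoxc4 at -0.25 and Hoxc5 at -0.73. The largest gaps were 2.04 for Hoxd4, 1.79 for Hoxd3 and 1.60 for Hoxa2, all genes at the 3′ end of their clusters. Per array, the median deviation of the members from their own means was 0.59 on control 1, against -0.29 to -0.01 on the other 5 arrays. Without control 1 the median difference of the members was 0.24, beside 0.068 over all genes, and 20 of 32 were positive. Then 7 members were called (limma adjusted p), against 14.7% of all genes: Hoxb1, Hoxb3, Hoxb5 and Hoxd9 higher and Hoxa2, Hoxc6 and Hoxc8 lower. Markers of other tissues also differed on that array: all 5 somite, 7 tail bud and 4 neural tube markers were higher on control 1 than the mean of controls 2 and 3, by medians of 1.58, 0.72 and 1.12, as were 13 of 15 regulators of Hox genes (0.81) and 8 of 9 TALE cofactors (0.51), both described further on. In the other direction, all 7 yolk sac endoderm markers and all 5 primitive red cell markers were lower on control 1 than that mean, by medians of -2.59 and -2.61. Their part in the Hox values was not tested.

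**Figure D2:**
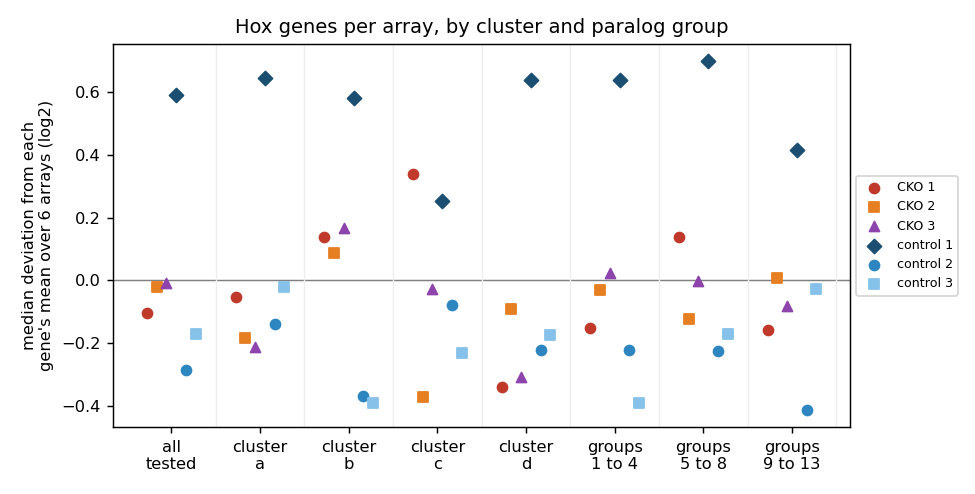
Median over the Hox genes of each set of the deviation from each gene's mean over the 6 arrays (vertical axis, log2), 1 point per array. Control 1 is the highest array in every set except cluster c, where CKO 1 is higher at 0.34, and stands at 0.59 over all tested members.

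Cluster b, on chromosome 11, held the 1 called rise and no fall among its 9 tested genes. Hoxb5, a gene of the middle of the cluster expressed in the neural tube and lateral mesoderm, was at 0.31, 0.29 and 0.34 on CKO 1, 2 and 3 and at -0.40, -0.73 and -0.51 on controls 1, 2 and 3. All 3 CKO arrays lay above all controls, and they differed from each other by less than 0.1. Its mean was 0.32 ± 0.02 (SD, n = 3) against -0.55 ± 0.16, a difference of 0.86 ± 0.15 (SE, limma adjusted p = 0.0247), or 1.82-fold. The same-day difference was 0.84. The size was stable, but the call was lost on leaving out CKO 1 (limma adjusted p = 0.0938), CKO 3 (0.107), control 2 (0.114) or control 3 (0.0623), and with scan day as a block (0.381).

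On the 5′ side of Hoxb5, Hoxb6 and Hoxb7 were higher on the CKO arrays without passing the test. On its 3′ side the next gene, Hoxb4, differed by 0.01 ± 0.29. Hoxb3 was higher, but its probe is uncertain in its source, as stated above. Hoxb3, which patterns the hindbrain, was at 0.61, -0.07 and 0.44 on the CKO arrays and -0.14, -0.82 and -0.78 on the controls. The genotypes did not overlap, though CKO 2 and control 1 were close, and the difference was 0.91 ± 0.27 (limma adjusted p = 0.0829) and 0.51 within the shared day. Hoxb6, the next gene 5′ of Hoxb5, was at 2.32, 2.07 and 1.95 on the CKO arrays and 1.58, 1.13 and 1.65 on the controls. Again all CKO arrays lay above all controls, with a difference of 0.66 ± 0.20 (limma adjusted p = 0.0881) that was 0.62 within the shared day. Its upstream probe gave 0.44 ± 0.21 and did not overlap either. Hoxb7 differed by 0.44 ± 0.18 with no overlap (limma adjusted p = 0.162, same-day difference 0.64).

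The remaining genes of cluster b overlapped between genotypes. Hoxb1, the early hindbrain gene of the cluster, was at 0.31, -0.14 and 0.09 on the CKO arrays and 0.41, -0.82 and -0.96 on the controls, so that control 1 alone lay with the CKO arrays. Its difference was 0.55 ± 0.38 (limma adjusted p = 0.348). Without control 1 it was 0.98 (limma adjusted p = 0.0299). Hoxb2 differed by -0.12 and Hoxb4 by 0.01. The sign of Hoxb4 flipped to -0.017, -0.074 and -0.047 under quantile scaling, median scaling and normexp background correction. Hoxb8 differed by 0.23 and Hoxb9 by -0.51, both with control 1 as the highest array. In all, 7 of 9 differences in the cluster were positive with a median of 0.44, and the same-day median was 0.51. Of the 9 genes, 4 lay wholly above the controls and 0 wholly below, against 22.8% and 19.2% of all genes. The 4 include Hoxb3, whose probe is uncertain in its source, and the 7 positive genes include Hoxb3 and Hoxb4. The median of cluster b stayed between 0.35 and 0.51 under the scalings, filters and blocks tried, and between 0.29 and 0.73 with an array left out.

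Cluster c, on chromosome 15, held the called fall, among 6 tested genes with differences in both directions. Hoxc6, a gene of the thoracic trunk, was at -1.83, -1.42 and -1.54 on CKO 1, 2 and 3 and at 0.68, -0.26 and -0.67 on controls 1, 2 and 3. Every CKO array lay below every control, and the controls spread over more than the CKO arrays. The mean was -1.60 ± 0.21 (SD, n = 3) against -0.08 ± 0.69, a difference of -1.52 ± 0.35 (SE, limma adjusted p = 0.0471), or 2.86-fold lower. The same-day difference was -1.34. The call was lost without CKO 1 (limma adjusted p = 0.163), CKO 2 (0.0541), CKO 3 (0.141) or control 2 (0.138), with slide as a random block (0.0566) and with scan day as a block (0.532).

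Hoxc8, the next gene 5′ of Hoxc6 on the array, was at -4.38, -4.27 and -4.57 on the CKO arrays and -2.92, -3.45 and -3.80 on the controls. The genotypes did not overlap, and the difference of -1.02 ± 0.25 stood just outside the threshold (limma adjusted p = 0.0537). It passed under quantile scaling (limma adjusted p = 0.0424), median scaling (0.0376) and normexp background correction (0.0472). Hoxc9 differed by -0.40 ± 0.27, with a same-day difference of -0.04.

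At both ends of cluster c the CKO arrays differed among themselves. Hoxc4 was at -2.14 and -2.27 on CKO 1 and CKO 3 but at -3.63 on CKO 2, and at -4.00, -3.80 and -3.71 on the controls. Its difference was 1.16 ± 0.40 (limma adjusted p = 0.112), against a same-day difference of 0.21. Hoxc5 was at -1.19 on both CKO 1 and CKO 3 but at -3.32 on CKO 2, and at -3.43, -2.65 and -2.75 on the controls. Here the sign turned with the scan day: the difference was 1.04 ± 0.60 (limma adjusted p = 0.270) over all arrays and -0.38 within the shared day. Without CKO 2 both passed, at 1.63 (limma adjusted p = 0.0123) and 1.75 (0.0213), among 6 of 33 members and 18.7% of 15586 genes called. Hoxb13 is among these 6. It entered that fit through CKO 1 and CKO 3 alone, and no control array measured it. Hoxc10 had the same layout as Hoxc4 and Hoxc5, with -3.91 and -4.68 on CKO 1 and CKO 3, -5.34 on CKO 2 and -5.43 to -5.16 on the controls. CKO 1 and CKO 3 are the arrays that differ in scan day and spike-in level, and the part of these in the 3 genes was not tested. The median of cluster c was accordingly 0.14 over all arrays and -0.21 within the shared day. It was -0.14 after normexp background correction.

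Cluster d, on chromosome 2, had no called gene by its brighter probes. Of its 7 tested genes 2 had positive differences, and 4 without control 1. Hoxd3 had the largest difference of the 32 tested members by its brighter probe, while its other probe differed by 0.04. The brighter probe was at -4.29, -4.37 and -4.33 on the CKO arrays, all below the controls at -1.49, -2.82 and -3.74. The CKO arrays agreed within 0.1 while the controls ranged widely, and the difference was -1.65 ± 0.53 (limma adjusted p = 0.0956), -1.69 within the shared day and -1.05 without control 1. Hoxd8, a trunk gene, was at -2.51, -2.34 and -2.33 on the CKO arrays and -1.25, -1.75 and -1.86 on the controls. It did not overlap either, and its difference of -0.77 ± 0.20 missed the threshold (limma adjusted p = 0.0636, same-day difference -0.72). Under median scaling it was -0.86 and passed (limma adjusted p = 0.0390). Hoxd1 differed by -0.44 ± 0.23 and Hoxd4 by -0.67 ± 0.56. For Hoxd4, control 1 at 2.63 set the difference: the other controls were at 0.71 and 0.46 and the CKO arrays at 0.53, 0.84 and 0.42, and without control 1 it was 0.01.

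The 5′ genes Hoxd9 and Hoxd13 were higher on the CKO arrays. Hoxd9 was at -1.08, -1.44 and -1.13 on the CKO arrays and -1.52, -2.40 and -2.09 on the controls. The genotypes did not overlap, the difference was 0.79 ± 0.26 (limma adjusted p = 0.0996, same-day difference 0.56), and its other probe gave 0.94 ± 0.25 (0.0655). Hoxd13, the last gene of the cluster, which patterns digits and the genital region later in development, had a called probe. Its dimmer, upstream probe, whose sequence is given above, was at -5.32, -5.05 and -5.24 on the CKO arrays and -6.10, -6.72 and -6.14 on the controls. This was a rise of 1.12 ± 0.22 (limma adjusted p = 0.0303) with no overlap and a same-day difference of 1.27. The probe is dim and depends on the background correction: after normexp it differed by 0.0073 (limma adjusted p = 0.980), and under quantile scaling by 0.70 (0.127). The call was also lost without CKO 1 (limma adjusted p = 0.0981), CKO 3 (0.11), control 2 (0.0964) or control 3 (0.0573), and with scan day as a block (0.363), the intensity trend and robust fit (0.0652), no filter (0.0641) or the replicate block (0.0847). The brighter probe, which stands for the gene by the rule, was at -2.59, -2.42 and -2.66 against -3.12, -3.25 and -3.01. It did not overlap either, but its difference of 0.57 ± 0.15 missed the threshold (limma adjusted p = 0.0679, same-day difference 0.71). The mean of the 2 probes passed at 0.84 (limma adjusted p = 0.0351). Hoxd10 lay between these genes and differed by -0.16 ± 0.25. The median of cluster d was -0.44, and 0.01 without control 1.

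Cluster a, on chromosome 6, had 10 tested genes and none called, with a median difference of -0.25, which was -0.25 within the shared scan day and -0.01 without control 1. None lay wholly above the controls and 3 lay wholly below, against 22.8% and 19.2% of all genes. Hoxa2, which patterns the hindbrain and the second branchial arch, was at -2.45, -2.32 and -2.39 on the CKO arrays and 0.04, -1.35 and -1.79 on the controls. The CKO arrays were close to each other and below every control, and the difference was -1.35 ± 0.45 (limma adjusted p = 0.104, same-day difference -1.28, and -0.82 without control 1). Hoxa9 was at -1.25, -0.84 and -0.93 against 0.69, -0.38 and -0.65, also without overlap, and differed by -0.89 ± 0.36 (limma adjusted p = 0.149, same-day difference -0.72, and -0.49 without control 1). Hoxa10 was the third, at -2.71, -2.77 and -2.80 against -2.22, -2.59 and -2.10, with a difference of -0.46 ± 0.18 (limma adjusted p = 0.136). Hoxa7 had a larger difference, -0.93 ± 0.41 (limma adjusted p = 0.171), but CKO 2 at 2.86 lay among the controls at 3.62, 2.84 and 2.61 while CKO 1 and CKO 3 were at 1.70 and 1.71. Its same-day difference was -0.17.

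The other members of cluster a were close to 0 or changed sign with the setting. Hoxa3 differed by 0.048 ± 0.17, Hoxa4 by -0.15 ± 0.41 and Hoxa5 by 0.08 ± 0.34. Hoxa3 and Hoxa5 were at -0.04 and -0.0036 under median scaling. Hoxa6 differed by 0.43 ± 0.42 over all arrays and -0.31 within the shared day, and CKO 1 at -4.43 was its highest array. Hoxa11 differed by -0.36 ± 0.29 and Hoxa13 by 0.47 ± 0.31. After normexp background correction Hoxa6 was at -0.11 and Hoxa13 at -0.19.

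**Figure D3:**
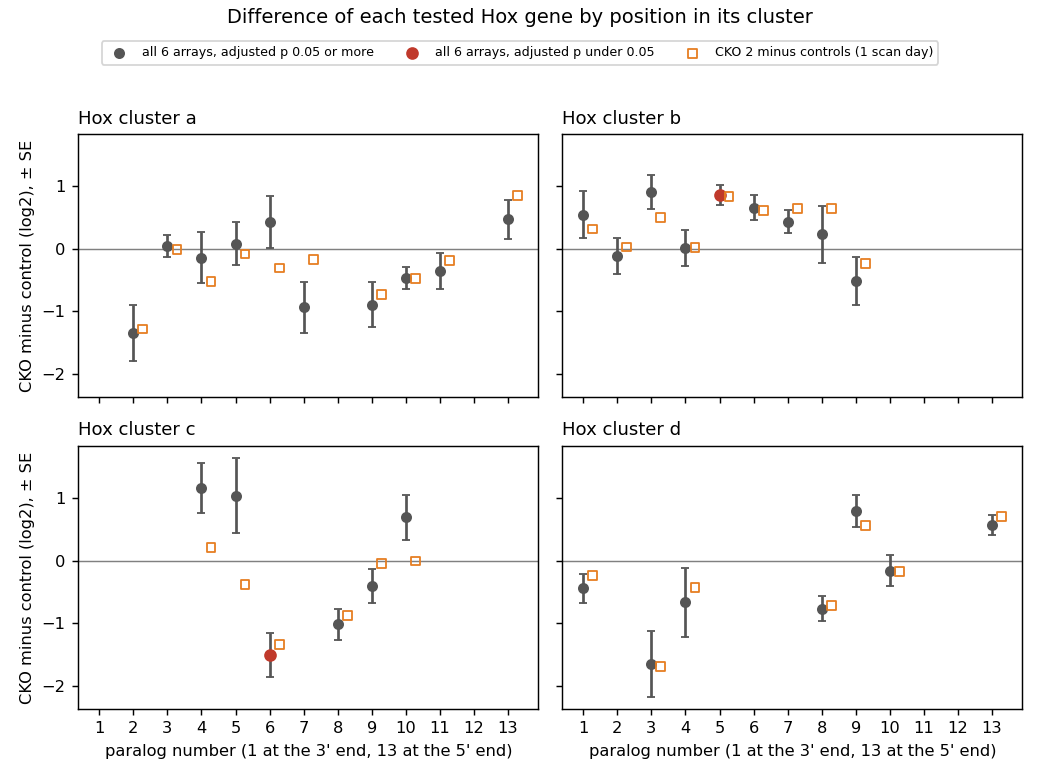
Difference between CKO and control of each tested Hox gene (vertical axis, log2, ± SE) against its paralog number (horizontal axis), by cluster; squares are CKO 2 minus the controls on the shared scan day. Hoxb5 at 0.86 and Hoxc6 at -1.52 are the called genes, 7 of 9 genes of cluster b lie above 0, and no cluster shows a single direction from its 3′ to its 5′ end.

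Read by position across the clusters, the members gave no order from 3′ to 5′. Paralog groups 1 to 4 (11 tested) had a median difference of -0.12 with 5 positive and none called. Without control 1 the sign turned, to 0.19 with 8 positive. Groups 5 to 8 (11 tested) had a median of 0.23 with 7 positive, and held both called genes. Their median was -0.17 within the shared scan day. Groups 9 to 13 (10 tested) had a median of -0.26 with 4 positive and none called, which was -0.11 within the shared day and -0.04 without control 1. The 3 tested members of group 5 were positive (0.08, 0.86 and 1.04 for Hoxa5, Hoxb5 and Hoxc5), but Hoxc5 was negative within the shared day. In group 6 Hoxb6 at 0.66 and Hoxc6 at -1.52 lay on opposite sides, each without overlap. In group 8 Hoxc8 and Hoxd8 lay wholly below the controls, at -1.02 and -0.77, while Hoxb8 overlapped at 0.23. In group 9 the members of clusters a, b and c were negative (-0.89, -0.51 and -0.40) and Hoxd9 was positive at 0.79. Both tested members of group 13, Hoxa13 and Hoxd13, were positive at 0.47 and 0.57. The differences between clusters or position classes were not tested.

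The 5 members left untested were all 5′ genes. Hoxb13 exceeded background clearly on 2 of 3 CKO arrays and no control: its log2 levels were -4.94, -7.16 and -5.41 against -6.72, -8.23 and -8.68 on CKO 1, 2 and 3 and controls 1, 2 and 3. CKO 2 lay below control 1, the signal above background was on CKO 1 and CKO 3 only, and no fold is given. Hoxd11 was measured on 1 CKO array only, at -6.15 on CKO 2. Hoxd12 was measured on 1 control array only. No fold is given for either. Hoxc12 and Hoxc13 were dim throughout, not well above background on any of the 6 arrays.

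Of the 11 members with 2 probes, 9 had both tested, and the probes of some genes differed. For Hoxd3 the probe nearer the 3′ end of the gene gave -1.65 ± 0.53, while the upstream hexapeptide probe, 3025 bases away, was at -5.55, -5.81 and -5.51 on the CKO arrays and -4.98, -6.11 and -5.90 on the controls. The latter overlapped and differed by 0.04 ± 0.31 (limma adjusted p = 0.937). For Hoxa3 the downstream probe gave -1.02 ± 0.41 without overlap (limma adjusted p = 0.151), against 0.05 for the brighter upstream probe. For Hoxa4 the probes gave 0.73 upstream and -0.15 downstream, and for Hoxb2 the probe on the opposite strand gave 0.57 against -0.12. Hoxb6, Hoxd9 and Hoxd13 had the same direction by both probes, without overlap by either. The difference between the probes of a gene was not tested. Array annotation of exons or untranslated regions in mm7 was not used here.

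**Figure D4:**
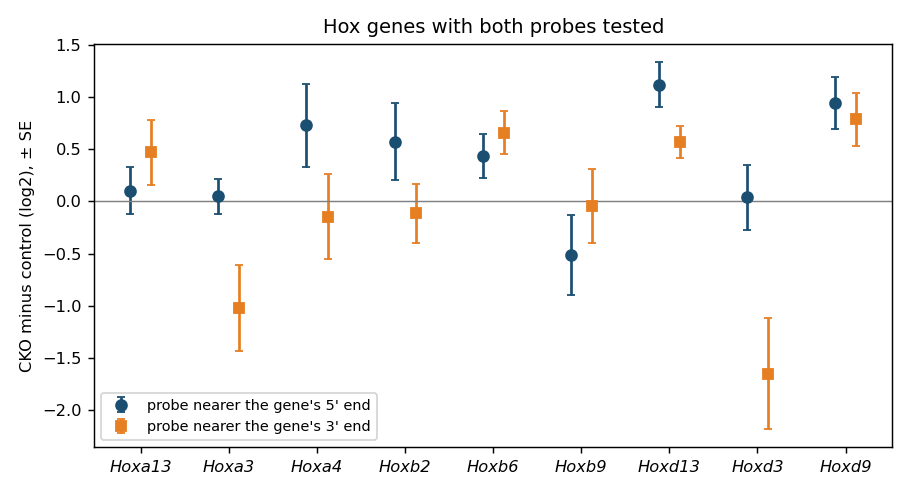
Difference between CKO and control (vertical axis, log2, ± SE) for the 9 Hox genes whose 2 probes were both tested, by the probe nearer the 5′ or the 3′ end of the gene. The probes of Hoxd13, Hoxd9 and Hoxb6 lie on the same side of 0, and those of Hoxd3 are at 0.04 and -1.65. The 5′ probe of Hoxb2 lies on the opposite strand.

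Other transcripts of the clusters were read by array position in mm7. Hoxaas2, an antisense RNA between Hoxa2 and Hoxa3, was at -2.83, -2.89 and -2.66 on the CKO arrays and -1.04, -1.62 and -2.21 on the controls. Like Hoxa2 it lay wholly below the controls, by -1.17 ± 0.30 (limma adjusted p = 0.0597). An unnamed transcript whose probe lies between those of Hoxb3 and Hoxb2 differed by -1.09 ± 0.41 without overlap (limma adjusted p = 0.135), while Hoxb3 was positive. Hoxd3os1, on the strand opposite to the genes of cluster d, differed by 0.76 ± 0.29 (limma adjusted p = 0.135). Of the 9 genes that flank the clusters, 0 were called by limma, and 4 had an unadjusted p under 0.05. The smallest p was that of Calcoco1, beside cluster c, at 0.59 ± 0.15 (limma adjusted p = 0.0643). The even-skipped homologues at the 5′ ends leaned apart: Evx1, beside cluster a, by -0.97 ± 0.29 and Evx2, beside cluster d, by 1.35 ± 0.42 (limma adjusted p = 0.0862 and 0.0919). The same-day difference of Evx2 was 0.42.

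The partners of Hox proteins in binding DNA, the TALE homeodomain proteins of the PBX, MEIS and PREP families, showed no called gene among 9 tested, with a median difference of -0.15. At an unadjusted p under 0.05 there was 1, Pknox2, which encodes a PREP protein. It was at -1.64, -1.86 and -1.87 on the CKO arrays and -0.95, -1.13 and -1.45 on the controls, a difference of -0.61 ± 0.18 (limma adjusted p = 0.0838). Among 15 tested of 16 listed regulators of Hox genes, 0 rose and 2 fell, with a median of -0.08. Cdx4, a caudal-type factor that activates trunk Hox genes, was at -2.51, -2.22 and -2.09 against 0.38, -1.18 and -0.68. All CKO arrays lay below the controls, by -1.78 ± 0.39 (limma adjusted p = 0.0423). The call held without control 1 (limma adjusted p = 0.0212) and was lost without any other array (0.0564 to 0.151), with slide as a random block (0.0515), no filter (0.0832) or the replicate block (0.0886). Its relatives Cdx1 and Cdx2 overlapped, at 0.18 and 0.32. Wnt3a, a signal of the tail bud that acts ahead of the Cdx genes, was at -1.19, -1.11 and -1.33 against 1.04, 0.02 and 0.43. It too lay wholly below, by -1.71 ± 0.27 (limma adjusted p = 0.0181). The call of Wnt3a was lost without CKO 1 (limma adjusted p = 0.0817) or CKO 3 (0.0789) and with the replicate block (0.0527). With scan day as a block neither gene passed (limma adjusted p = 0.489 for Cdx4 and 0.381 for Wnt3a).

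Genes of retinoic acid metabolism, which sets the anterior borders of 3′ Hox genes, did not pass. Aldh1a2, which makes retinoic acid, differed by -1.23 ± 0.31 without overlap (limma adjusted p = 0.0583). Cyp26b1, which degrades it, differed by 1.68 ± 0.57 without overlap (limma adjusted p = 0.106), and Cyp26a1 by -0.08. The hindbrain regulator Egr2 overlapped between genotypes, at 0.33.

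**Figure D5:**
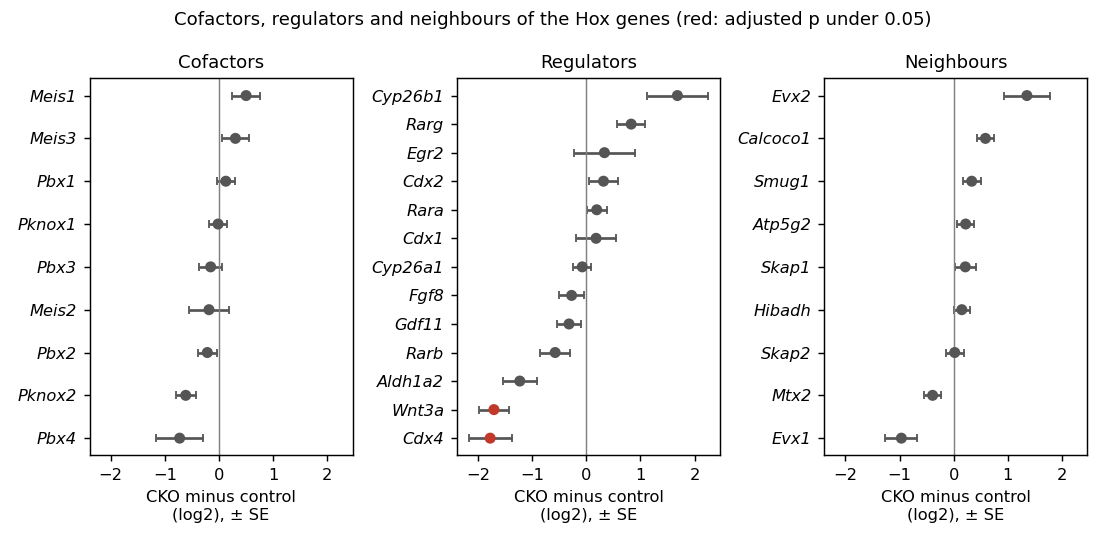
Difference between CKO and control (horizontal axis, log2, ± SE) of the tested TALE cofactors, 13 of the 15 tested regulators and the flanking genes of the Hox clusters. Cdx4 at -1.78 and Wnt3a at -1.71 are the called genes (red), and every cofactor lies between -0.73 and 0.50.

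Hox genes are expressed in tissues whose markers also moved. In the posterior embryo and tail bud list, 2 of 7 fell (Tbx6 by -2.30 and Wnt3a by -1.71) and 0 rose. The mean level of that list was 0.51 to 0.68 on the CKO arrays and 0.70 to 1.69 on the controls. Of 5 somite markers 2 were called lower, Meox1 by -1.89 and Lfng. Lfng passed the filter through the control arrays alone, since only 1 of the 3 CKO arrays measured it clearly over background. Its call and the size of its fall are therefore uncertain: the difference was -2.43 by the values as read and -0.88 after normexp. For the somite markers the mean level was -3.16 to -3.05 on the CKO arrays and -2.28 to -0.92 on the controls. Of 4 neural tube markers Sox1 rose by 1.03 and Pax6 fell by -1.81, with mean levels of -2.63 to -2.36 and -2.77 to -1.25. Sox1 was at 0.32 after normexp (limma adjusted p = 0.175), and its call was also lost with the intensity trend and robust fit (0.0563). In the lateral plate and allantois list Hand1 rose by 1.41, 1 of 4, with mean levels of -1.41 to -1.004 and -2.10 to -1.65. None of 4 hindbrain markers was called, with 1 at an unadjusted p under 0.05. All 4 trophoblast markers rose, by a median of 2.73, with mean levels of -0.56 to -0.02 on the CKO arrays and -3.14 to -2.76 on the controls. After normexp Eomes was at 1.68 rather than 3.07 and Ascl2 at 1.38 rather than 2.36. None of 7 yolk sac endoderm markers was called by limma (0 at an unadjusted p under 0.05), with mean levels of 4.16 to 4.45 on the CKO arrays and 2.07 to 4.85 on the controls. None of 5 primitive red cell markers was called (1 at an unadjusted p under 0.05), with 1.05 to 1.39 and 0.55 to 3.18. The 11 called markers include Lfng. Elf5 of the trophoblast list stayed called with each array left out (limma adjusted p = 0.00172 to 0.0142). Of the 11, 8 lost the call without each of CKO 1, CKO 3 and control 2, 2 without control 3 (Meox1 and Sox1), 1 without CKO 2 (Meox1) and 1 without control 1 (Hand1). With no filter 5 lost the call, with the replicate block 5, with slide as a random block 2, with median scaling 1 and with scan day as a block all 11. The part of these tissues in the Hox values was not tested.

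Promoter sequences from RefSeq (GRCm38.p6, from 250 bases before to 50 after the start) were given for 22 members in 24 windows. The motif TTTATG, the letters bound by Cdx factors, was searched on both strands because Cdx4 fell. It was in 5 of 24 windows (20.8%), against 11.9% of all 32851 promoters: those of Hoxa7, Hoxb8, Hoxd11, Hoxd3 and Hoxd4. TGATNNAT, the joint motif of PBX and Hox proteins, was in 4 windows (16.7% against 8.85%), those of Hoxa2, Hoxb1, Hoxb8 and Hoxd11. One window of Hoxb8 holds both motifs, which share 0 bases there, and the 2 windows of Hoxd11 hold 1 each. A match is a description of the letters and shows no binding. The windows below lie at chr6:52218695-52218823 (minus strand) and chr11:96365550-96365649 (plus strand) in GRCm38.p6, with the matches in capitals. Hoxa7 is shown for its 2 matches to TTTATG and Hoxb1 for the PBX and Hox motif, in a region known for the control of Hoxb1 by its own protein.
Hoxa7: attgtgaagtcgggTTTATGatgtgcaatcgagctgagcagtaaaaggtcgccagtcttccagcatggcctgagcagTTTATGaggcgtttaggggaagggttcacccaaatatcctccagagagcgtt
Hoxb1: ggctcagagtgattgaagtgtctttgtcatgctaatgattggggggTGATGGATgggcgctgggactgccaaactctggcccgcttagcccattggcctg
The match in the Hoxb1 window begins 162 bases before the start, and those of Hoxa7 begin 236 and 173 bases before it. Of the members with TTTATG, Hoxa7, Hoxd3 and Hoxd4 had negative differences, Hoxb8 a positive one, and Hoxd11 was not tested. None of them was called, and 16 of all 32 tested members had negative differences. Without control 1 Hoxd4 was at 0.01, and the other probe of Hoxd3 was at 0.04. The part of Cdx4 in these values was not tested. The windows of members had a median of 14.5 CpG dinucleotides, against 7 in all promoters, and a median GC content of 57.6%, against 52.7%.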

How the data were processed

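Per the labels, 250 ng of RNA of each of the 6 embryo samples was labelled with Cy3. The intensity values deposited by the authors are processed signals of Agilent Feature Extraction 9.5 (per the submitters' processing notes), background-subtracted and not scaled between arrays per the file headers. The authors' flag columns (unit: other) mark spots that are saturated, outliers or well above background. The deposited series table held the same intensity values within a relative tolerance of 1e-4.

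Between 53 and 83 outlier spots per array and all control spots were dropped, replicate spots averaged, and log2 signals set against each array's 75th percentile (959 to 1630 units). A probe was kept where all 3 arrays of either genotype (or of both) were well above background. No member probe was saturated. Genes were named through the GRCm38.p6 table and read by their brightest kept probe. The 6 arrays entered 1 limma 3.58.1 fit with no covariate (two-sided, lmFit with eBayes), run in R 4.3.3; Python 3.11.15 read the files. The fit was tested on simulated data of 27834 probes, a small share of them changed, with independent noise. Of log2 changes of 1, 2 and 4 it found 10.6%, 77.0% and 100%, and 10 of 134 calls were false. These rates hold for that setting only. In the real data a larger share was called, and no shift of control 1 or of scan day was simulated.

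Members, lists and tests were chosen with earlier results of these data known. Every member is accounted for. Per-array values are given for members with a called probe, the 3 largest differences per cluster and 5′ genes measured in 1 genotype, and, as names added after their values were seen, for Hoxa10, Hoxb1, Hoxc8, Hoxc10, Hoxd4 and Hoxaas2. From other lists, called genes or else the smallest p were named; Aldh1a2, Cyp26b1, the other Cdx genes, Egr2, Evx1 and Evx2 were added after their values were seen. Alternatives were median or quantile scaling, normexp (offset 50), other filters on dim probes, the series table, an intensity trend with robust eBayes, the mean of a gene's probes, slide, scan day or replicate number as a block, other thresholds and each array left out. A few genes and probe sequences are not reported here.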

Additional observations from a re-analysis of the deposited data

How the results depend on the processing

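The number of called genes changed with the threshold and with the fit. Over all genes, 1585 calls became 693 with no filter, 263 at an adjusted p under 0.01 and 304 to 2912 with an array left out. With spike-in level as a block, which sets CKO 1 and CKO 3 apart and was chosen after seeing the data, they became 122. By limma with scan day as a block they became 0 (1793 at an unadjusted p under 0.05). Of 2 Hox calls, median scaling gave 4, slide as a random block 1 and a 2-fold minimum 1. No filter, an adjusted p under 0.01, scan day as a block and spike-in level as a block each gave 0 (unadjusted p under 0.05: 15, 13, 3 and 4 members). With an array left out the calls ran from 0 to 7. They were 0 without CKO 1, CKO 3 or control 2, where 7, 9 and 9 members had an unadjusted p under 0.05. Without CKO 2 they were 6 of 33, Hoxb13 among them, and without control 1 they were 7. The replicate numbers did not pair the samples: correlations of same-numbered deviations were -0.13, 0.08 and 0.09. With the replicate block 564 genes and 0 Hox genes were called (11 at an unadjusted p under 0.05), with an adjusted p of 0.0743 for Hoxb5 and 0.0969 for Hoxc6. The median of cluster c was 0.60 with no filter and -0.21 with scan day or spike-in level as a block. That of groups 5 to 8 was -0.17 with either block, and that of groups 9 to 13 was 0.47 with no filter. With an array left out, the median of cluster d ran from -0.60 to 0.0088 and that of groups 5 to 8 from -0.16 to 0.48. The sign of 12 of the 32 differences reversed in at least 1 setting. With scan day or spike-in level as a block, Hoxa3 was at -0.0081, Hoxa5 at -0.082, Hoxa6 at -0.31, Hoxb2 at 0.031, Hoxc5 at -0.38 and Hoxc10 at -0.0073. By the mean of the probes Hoxa3 was at -0.49, Hoxa4 at 0.29 and Hoxb2 at 0.23. The mean of Hoxb2 includes its probe on the opposite strand. Under median scaling Hoxa3 was at -0.04, Hoxa5 at -0.0036 and Hoxb4 at -0.074; under normexp Hoxa3 was at -0.031, Hoxa6 at -0.11, Hoxa13 at -0.19 and Hoxb4 at -0.047; under quantile scaling Hoxb4 was at -0.017. With an array left out the ranges that crossed 0 were Hoxa3 -0.084 to 0.13, Hoxa4 -0.49 to 0.28, Hoxa5 -0.21 to 0.45, Hoxa6 -0.046 to 0.80, Hoxb2 -0.34 to 0.19, Hoxb4 -0.17 to 0.31, Hoxb8 -0.16 to 0.73, Hoxd10 -0.41 to 0.058 and Hoxd4 -1.07 to 0.0088. The directions of Hoxb5 and Hoxc6 held in every fit tried. The cause of these shifts was not tested. Levels of the dimmest 5′ genes are limited by signal over background.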
